A study of Mus musculus with 32 samples.

Results

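The canonical histone genes were taken as the protein-coding genes of the GENCODE M21 annotation of mm10 whose symbols begin with *Hist1h*, *Hist2h*, *Hist3h* or *Hist4h*. They number 67 of the 21938 protein-coding genes on chromosomes 1 to 19, X and Y, and comprise 6 H1, 18 H2A, 18 H2B, 12 H3 and 13 H4 genes. They were described in *MLL-AF9* acute myeloid leukemias that carried or lacked *Kat2a*, a histone acetyltransferase that acetylates lysine 9 of histone H3. Donors of both groups were *Kat2a* Flox/Flox mice on a C57Bl/6 background and received pIpC, an inducer of the interferon-responsive *Mx1* promoter that drives Cre in blood cells, and the KO donors were Mx1-Cre +/- while the WT donors, Mx1-Cre -/-, carried no Cre. Lineage-depleted bone marrow of either genotype was transduced with an *MLL-AF9* retrovirus and grown into leukemia in recipients given a lethal dose of radiation, and terminal bone marrow was pooled from 5 WT and 4 KO animals. The cells were total bone marrow and not sorted, so that recipient or non-leukemic cells could be among them. ChIP-seq for H3K4me3, H3K9ac, H3K27ac and H3K4me1 was done in 2 replicates per genotype, each a separate cell sample and chromatin preparation from the same pool of animals. The spread between replicates is therefore technical, and no test here measured the spread between animals.

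Canonical histone genes supply the bulk of nucleosomal and linker histone while DNA is being replicated. They lie in clusters, mostly lack introns, and give short messages that end in a stem-loop instead of a poly(A) tail. NPAT, a cell-cycle-dependent coactivator, gathers at the clusters in nuclear histone locus bodies, and OCT1, CCAAT-binding factors and HINFP are textbook regulators of particular classes. H3K4me3 and H3K9ac mark active promoters, H3K27ac active promoters and enhancers, and H3K4me1 enhancers.

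Most members lay in a pair of *Hist1* stretches of chromosome 13. The proximal stretch (mm10 chr13:21715763-22043676) held 23 members and the distal stretch (chr13:23531050-23934851) held 31. *Hist2* (chr3:96219865-96270132) held 10 members, *Hist3* (chr11:58948920-58956830) held 2, and *Hist4* (chr6:136801553-136804415) was *Hist4h4* alone. The median member was 539 bp long, shorter than the promoter window used, which ran from 1000 bp before to 500 bp after an annotated start. Histone genes were also crowded: their windows merged into 39 separate stretches, and 12 of the 18 H2A genes were head to head with an H2B gene whose start lay 176 to 306 bp away.

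The class elements were legible in the RefSeq promoters (GRCm38.p6, 250 bases before to 50 after the start), which were found for 62 of the 67 members. Both strands were searched for the TATA box TATAAA, the CCAAT box, the octamer ATTTGCAT, the H1 box AAACACA, which is found in H1 promoters, and GGTCCG, the core of the H4 element bound by HINFP. A CCAAT match was present in every H1 (6), H2A (18), H2B (16) and H3 (10) promoter found, in 3 of 12 H4 promoters and in 39.0% of 17492 protein-coding promoters. The H4 core was present in 11 of 12 H4 promoters, in 1 H2B and in 1 H3 promoter, against 10.6% of all promoters. The H1 box was present in 5 of 6 H1, 2 H2A and 2 H2B promoters and in 6.13% of all, and the octamer in 7 H2A and 6 H2B promoters, no other class, and 1.71% of all. Promoters of head-to-head H2A and H2B genes overlap, so a match can be counted in both classes. *Hist1h2ah* and *Hist1h2bk* share the same octamer bases, as do *Hist1h2ae* and *Hist1h2bg*. *Hist1h2aa* and *Hist1h2ba* share both an octamer and an H1 box. TATAAA was present in 56.5% of the members' promoters and 13.3% of all. A match is a string of letters and not a measured binding site.

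The following promoters are shown because the results turn on them. *Hist1h1c* had the highest mean H3K9ac rank of the *Hist1* genes, and *Hist1h1t*, the testis-specific linker histone, had none, although both held the H1 box and a CCAAT match. *Hist1h2ac* shares its start region with *Hist1h2bc*, *Hist1h4k* bears the H4 core, and *Hist1h2bq* is printed for a stretch of *Hist1* in which no peak was listed. Capitals mark matches to any of the searched motifs on either strand, and each sequence is written 5′ to 3′ on the gene's strand.
*Hist1h1c*, chr13:23738557-23738856, plus strand: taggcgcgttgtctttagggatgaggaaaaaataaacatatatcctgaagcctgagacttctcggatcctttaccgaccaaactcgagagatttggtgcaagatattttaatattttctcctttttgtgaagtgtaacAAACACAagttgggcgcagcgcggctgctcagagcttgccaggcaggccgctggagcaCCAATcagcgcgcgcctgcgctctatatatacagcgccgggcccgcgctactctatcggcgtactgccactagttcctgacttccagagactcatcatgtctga
*Hist1h1t*, chr13:23695561-23695860, plus strand: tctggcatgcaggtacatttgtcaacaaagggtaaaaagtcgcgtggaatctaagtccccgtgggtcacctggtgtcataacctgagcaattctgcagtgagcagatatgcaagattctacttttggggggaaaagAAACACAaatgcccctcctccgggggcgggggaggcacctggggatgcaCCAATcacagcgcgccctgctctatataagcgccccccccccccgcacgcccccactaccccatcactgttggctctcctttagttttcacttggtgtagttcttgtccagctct
*Hist1h2ac*, chr13:23683910-23684209, minus strand: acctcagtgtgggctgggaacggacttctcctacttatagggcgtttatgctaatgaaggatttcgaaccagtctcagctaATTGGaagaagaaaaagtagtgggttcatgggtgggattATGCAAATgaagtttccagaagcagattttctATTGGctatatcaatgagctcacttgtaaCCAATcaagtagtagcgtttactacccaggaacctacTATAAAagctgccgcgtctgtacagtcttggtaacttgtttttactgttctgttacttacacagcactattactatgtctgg
*Hist1h4k*, chr13:21750504-21750803, minus strand: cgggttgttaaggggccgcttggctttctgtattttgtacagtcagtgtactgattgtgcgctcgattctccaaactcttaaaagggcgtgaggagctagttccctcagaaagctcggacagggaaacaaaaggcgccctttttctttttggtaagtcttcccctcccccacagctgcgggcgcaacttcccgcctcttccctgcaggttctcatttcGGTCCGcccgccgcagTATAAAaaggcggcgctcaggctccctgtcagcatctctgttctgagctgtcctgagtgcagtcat
*Hist1h2bq*, chr13:21810150-21810449, minus strand: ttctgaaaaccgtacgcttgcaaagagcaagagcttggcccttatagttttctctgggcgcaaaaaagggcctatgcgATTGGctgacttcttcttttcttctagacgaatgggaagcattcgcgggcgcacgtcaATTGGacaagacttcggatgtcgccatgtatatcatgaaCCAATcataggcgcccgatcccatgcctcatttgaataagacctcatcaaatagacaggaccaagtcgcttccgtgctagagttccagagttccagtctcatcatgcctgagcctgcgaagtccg

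H3K9ac peaks were listed at most histone promoters in both genotypes. The mark was found at 55 and 56 of the 67 members in WT replicates 1 and 2 and at 55 and 56 in KO replicates 1 and 2, which is 82.1% to 83.6%, against 51.5% to 54.4% of all protein-coding genes. A peak was listed in all 4 H3K9ac lists at 54 members (80.6%), and the same was true of 49.4% of all genes. No H3K9ac peak was listed in any list at 11 members (16.4%), against 43.5% of all genes. The remaining members were *Hist1h2bm*, an H2B gene listed at 4.23 and 2.61 in WT and at 4.20 in KO replicate 2 and absent from KO replicate 1, and *Hist2h3c1*, an H3 gene absent from WT replicate 1 and listed at 6.52, 4.54 and 5.68 in the other lists. These values are the authors' MACS2 fold enrichment over background at the summit of the strongest promoter peak, and since reads were not counted in the lists, neither a library's depth nor the error of a single fold is known. For *Hist2h3c1* the WT and KO values came from different peaks. The WT replicate 2 peak had its summit 689 bp downstream of the start and covered 9 bp of the window. The KO peaks had theirs at -508 and -510 bp, negative being upstream.

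**Figure D1:**
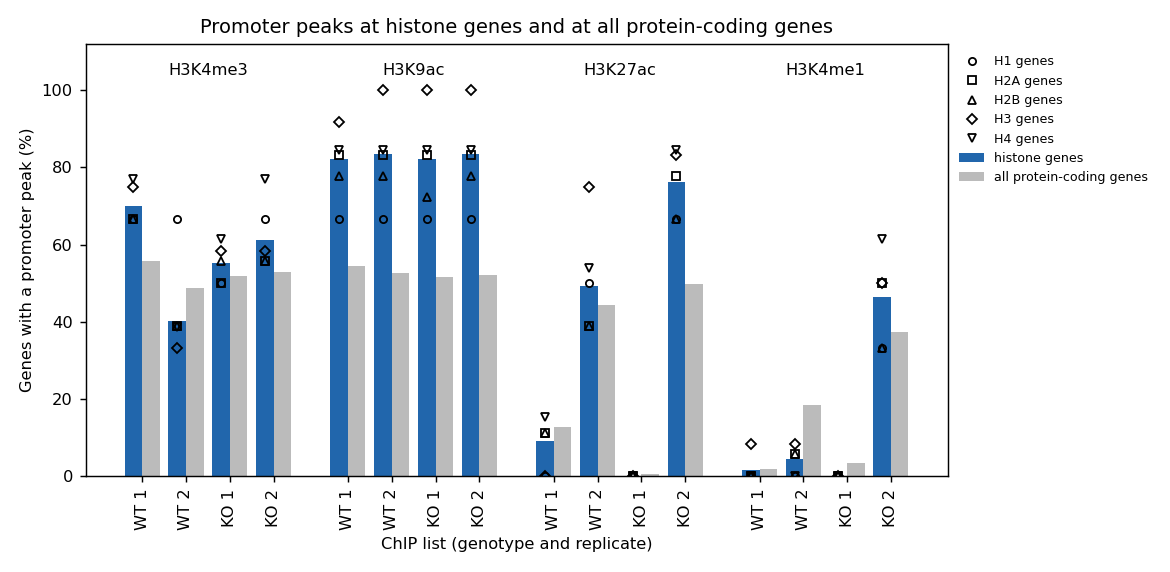
Percent of genes with a promoter peak in each of the 16 ChIP lists (x axis: genotype and replicate, grouped by mark). Blue bars are the 67 histone genes, grey bars all 21938 protein-coding genes, and open symbols the histone classes; the H3K9ac bars of the histone genes stand at 82.1% to 83.6% in every list.

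Every class was acetylated. H3K9ac in all 4 lists was found for 4 of 6 H1, 15 of 18 H2A, 13 of 18 H2B, 11 of 12 H3 and 11 of 13 H4 genes. By cluster it was found for 16 of 23 proximal *Hist1*, 27 of 31 distal *Hist1* and 9 of 10 *Hist2* genes, for *Hist4h4*, and for 1 of 2 *Hist3* genes. H3 was the only class in which no member lacked H3K9ac in all 4 lists.

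Histone genes often shared a peak with a neighbour, so that a gene's value was not always its own. The 55 members with H3K9ac in WT replicate 1 had 36 distinct strongest peaks, and one peak served as many as 4 genes. Of the 12 head-to-head H2A and H2B pairs, 9 had H3K9ac in all 4 lists at both genes, and in each of these the strongest peak was one and the same in all 4 lists. The other 3 pairs (*Hist1h2bq* with *Hist1h2ao*, *Hist1h2ap* with *Hist1h2br*, and *Hist1h2ba* with *Hist1h2aa*) had no H3K9ac peak at either gene.

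**Figure D2:**
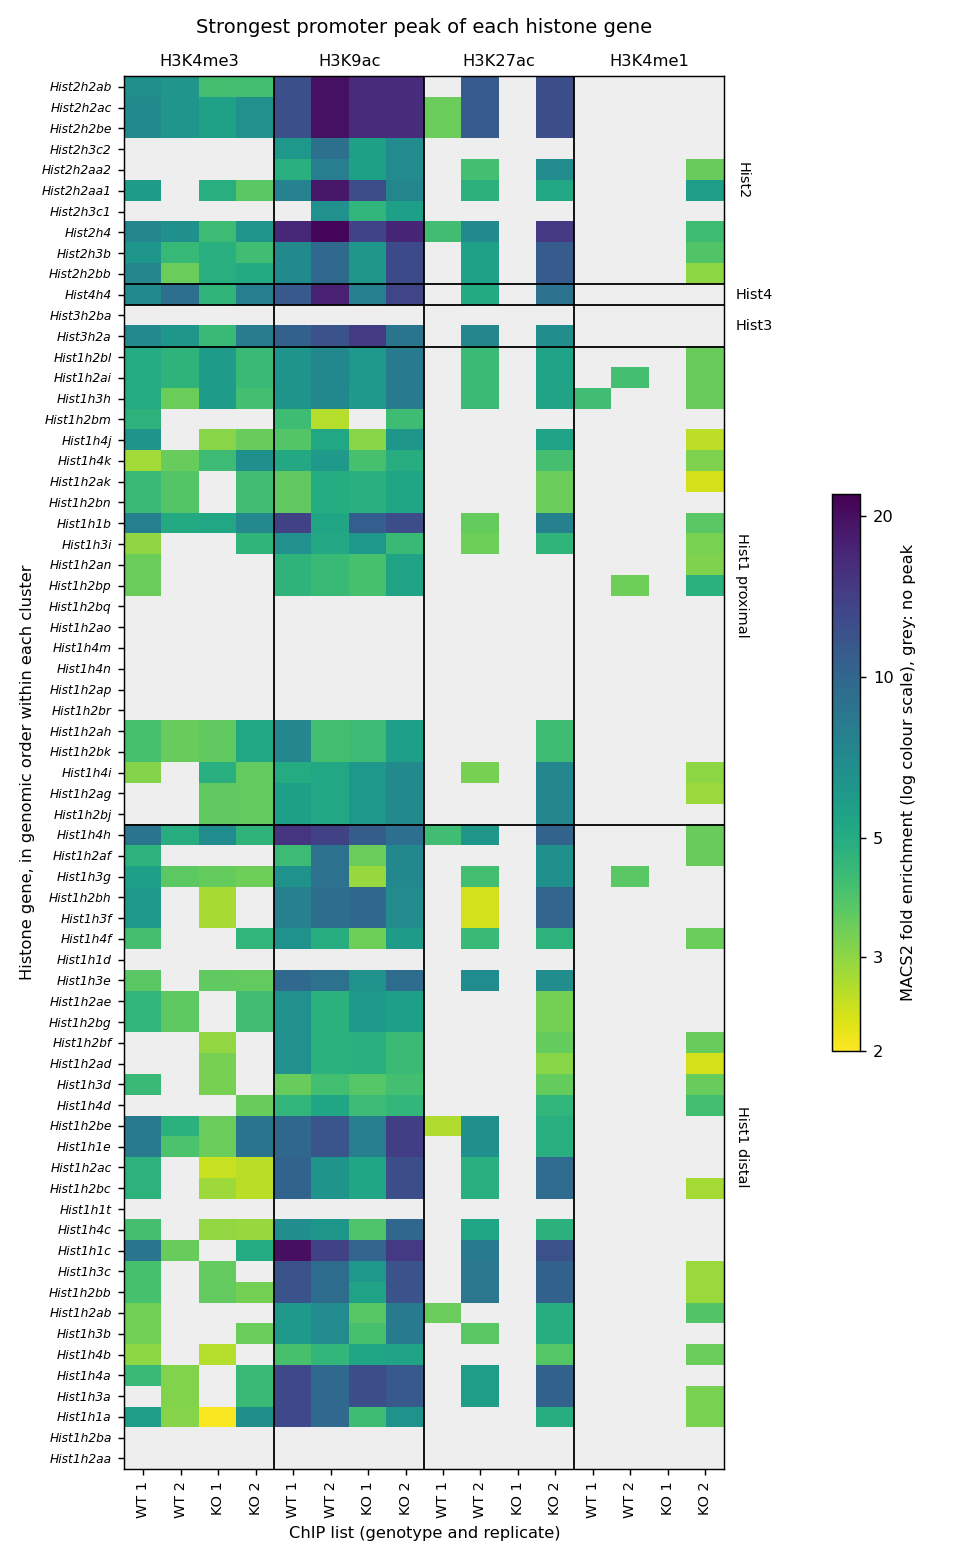
Fold enrichment of the strongest promoter peak of each of the 67 histone genes (rows, in genomic order within each cluster) in each of the 16 lists (columns, by mark, genotype and replicate), on a log colour scale, with grey for no listed peak. The H3K9ac columns are filled in all 4 lists for 54 genes, 6 neighbouring proximal *Hist1* genes are grey throughout, and most H3K4me1 cells are grey outside KO replicate 2.

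H3K9ac ranged widely over the histone loci. Within each list a peak was ranked by its fold, as the percentile of all peaks of that list, because the lists differ in scale. Over the 4 lists the members' strongest peaks had a median percentile of 65.3 to 71.6, against 80.1 to 83.1 for all genes with a peak, so histone promoters were often listed and ranked lower than most acetylated promoters. *Hist2h4*, an H4 gene, ranked highest, with a mean percentile of 92.4 and folds of 16.7 and 21.3 in WT and of 13.5 and 17.2 in KO. It was followed by a single *Hist2* peak shared by *Hist2h2ab*, *Hist2h2ac* and *Hist2h2be*, 2 H2A genes and an H2B gene, at 12.2 and 19.7 in WT and at 16.6 and 16.2 in KO. *Hist1h3d*, an H3 gene of the distal stretch, ranked lowest of the 54, with a mean percentile of 43.8 and folds of 3.49 and 4.15 in WT and of 3.78 and 4.11 in KO. These genes were picked as the extremes of the mark, so their distance from each other is a description. By raw fold the WT and KO values of *Hist2h4* overlapped, and by percentile both KO values (89.4 and 91.1) lay below both WT values (92.7 and 96.5).

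Among the linker histones, *Hist1h1c* ranked highest, at 19.9 and 13.8 in WT and at 10.1 and 14.7 in KO. *Hist1h1b*, in the proximal stretch, was at 13.7 and 5.31 in WT and at 10.7 and 12.5 in KO, and both KO values lay between the WT replicates. *Hist1h1e* was at 9.83 and 11.7 in WT and at 7.90 and 14.1 in KO, through a peak shared with one start of *Hist1h2be*. *Hist1h1a* was at 12.9 and 9.65 in WT and at 4.20 and 6.39 in KO.

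Among the core histones of *Hist1*, the lowest H2A and H2B genes were the head-to-head pair *Hist1h2an* and *Hist1h2bp*, at 4.61 and 4.35 in WT and at 4.01 and 5.43 in KO. The lowest H4 gene was *Hist1h4j*, at 3.80 and 5.23 in WT and at 3.07 and 6.17 in KO. *Hist1h3a*, the highest H3 gene, was at 12.9 and 9.65 in WT and at 12.4 and 11.3 in KO. The raw folds of WT and KO overlapped for each of these, although after centring both KO values of *Hist1h2an* and *Hist1h2bp* lay above both WT values. Outside chromosome 13, *Hist4h4* was at 11.3 and 17.7 in WT and at 7.65 and 13.3 in KO, and *Hist3h2a*, an H2A gene, at 10.4 and 12.1 in WT and at 14.5 and 8.64 in KO. The lowest *Hist2* gene with a peak in all 4 lists was *Hist2h2aa2*, at 4.78 and 7.86 in WT and at 5.61 and 6.91 in KO, whose near-identical copy *Hist2h2aa1* was at 7.59 and 18.8 in WT and at 12.4 and 7.32 in KO. *Hist2h3b* and *Hist2h2bb*, an H3 and an H2B gene, shared a peak at 6.99 and 9.65 in WT and at 6.21 and 12.8 in KO, and *Hist2h3c2* was at 6.12 and 9.10 in WT and at 5.61 and 6.91 in KO. The *Hist2h3c2* values were of unlike peaks, with summits 944 and 826 bp downstream in WT and 522 and 523 bp upstream in KO. Its KO peak was also that of *Hist2h2aa2*, with summits 627 and 626 bp downstream of the *Hist2h2aa2* start. At that place the *Hist2h3c2* window also held a WT peak, at 4.78 and 7.86, which was weaker than the WT peak used. The WT and KO folds given for *Hist2h3c2* therefore do not compare like with like. Around the RefSeq start *Hist2h2aa2* was at 3.95 and 4.34 in WT and at 3.29 and 4.94 in KO.

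The comparison of KO with WT asked whether the acetylation of histone promoters changed where the acetyltransferase was lost. No histone gene went one way: 0 members had H3K9ac in both WT lists and neither KO list, which 0.647% of all genes had, and 0 had it in both KO lists and neither WT list, which 0.173% of all genes had. *Hist2h3c1* had it in both KO lists and stayed out of the second count only through the 9-bp overlap of its WT replicate 2 peak. The folds were then fitted with limma on the log2 scale, each list centred on its median, for the 10837 genes with a peak in all 4 lists, 54 of them histone genes. Centring takes out any change common to the fitted promoters, so the fit shows only differences relative to other promoters. A gene without a peak in some list was not fitted. The median KO minus WT difference was 0.07 for the histone genes and 0.01 for all genes fitted. The estimate was below 0 for 22 of the 54 (40.7%), against 48.6% of all. At a Benjamini-Hochberg adjusted p under 0.05 limma called 0 histone genes and 0 genes in all in either direction (0% of those fitted). At an unadjusted p under 0.05 it gave 1 histone gene and 383 genes in all.

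That gene was *Hist1h1a*, whose log2 difference was -1.02 (SE 0.39, limma unadjusted p = 0.0119, adjusted p = 1.00). In WT its strongest peak was one that reached in from *Hist1h3a* and *Hist1h4a* and had its summit at -1895 bp (replicate 1) and -1932 bp (replicate 2) from the *Hist1h1a* start, negative being upstream. In KO that neighbouring peak ended short of the *Hist1h1a* window, and the strongest peak had its summit 273 and 376 bp downstream of the start. With only peaks whose summit lay in the window the difference was -0.33 (SE 0.38, limma adjusted p = 0.999). After centring, both KO values lay below both WT values at 4 of the 54 histone genes (7.41%), against 14.6% of all genes fitted, and above them at 10 (18.5%), against 16.6%. The 4 were *Hist2h4*, *Hist1h4k*, *Hist1h4h* and *Hist1h1a*. The 10 were the head-to-head pairs *Hist1h2bl* and *Hist1h2ai*, *Hist1h2ak* and *Hist1h2bn*, *Hist1h2an* and *Hist1h2bp*, *Hist1h2ag* and *Hist1h2bj*, and also *Hist1h4i* and *Hist1h4b*. Each pair shared its strongest peak in all 4 lists, so its genes are not separate observations. With 2 replicates of 1 pool per genotype the fit could find only large differences. In a check on data built with known changes across 10837 genes, it recovered 4.00% of changes of 1 and 96.0% of changes of 2 on the log2 scale. The built data gave every gene the same normal spread, which real genes need not have, so these shares are a rough guide to the real lists.

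**Figure D3:**
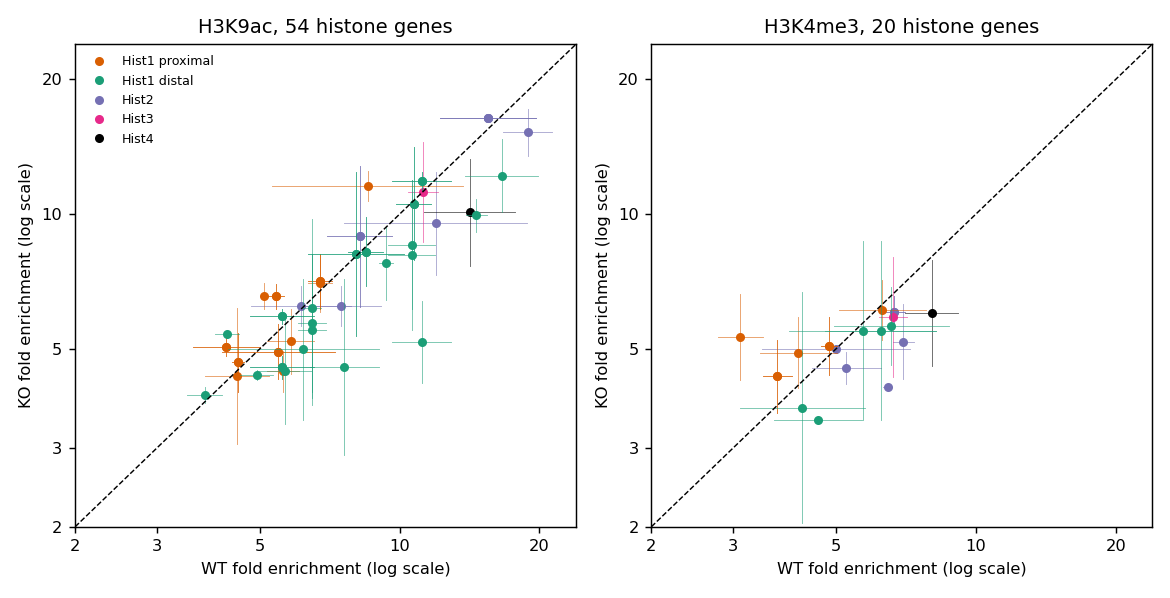
Fold enrichment in KO (y axis, log scale) against WT (x axis, log scale) at the histone genes with a peak in all 4 lists of the mark. Points are geometric means of the 2 replicates, thin lines run from the lower to the higher replicate, colours give the cluster and the dashed line marks equality. The H3K9ac points of 54 genes lie on both sides of the line, *Hist2h4* is the point farthest to the right, and *Hist1h1a* is the point farthest below it.

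H3K4me3 was listed less evenly. It was found at 47 and 27 members in WT and at 37 and 41 in KO, and the 4 lists of all genes ran from 48.7% to 55.6%. WT replicate 2 was the shortest H3K4me3 list, with 15685 peaks, against 19517 to 23297 in the others. A peak in all 4 lists was found at 20 members (29.9%), against 46.7% of all genes, and in no list at 14 (20.9%), against 42.7%. Of the 54 members with H3K9ac in all 4 lists, 20 (37.0%) also had H3K4me3 in all 4, 14 had it in 3 lists, 11 in 2, 7 in 1 and 2 in none, whereas H3K4me3 in all 4 accompanied 91.2% of the 10837 genes with H3K9ac in all 4. The 2 with none were *Hist2h3c2* and *Hist2h2aa2*. Where H3K4me3 was listed, it ranked low, with a median percentile of 26.9 to 44.8 against 67.1 to 75.3 for all genes with a peak.

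H3K4me3 in all 4 lists was found at 6 of 10 *Hist2* genes, 7 of 23 proximal and 5 of 31 distal *Hist1* genes, *Hist4h4* and *Hist3h2a*. *Hist4h4* was at 7.03 and 9.16 in WT and at 4.58 and 7.90 in KO, and *Hist3h2a* at 7.10 and 6.19 in WT and at 4.32 and 8.01 in KO. *Hist2h4* was at 7.35 and 6.63 in WT and at 4.27 and 6.28 in KO, both KO values lying below both WT values. *Hist1h1c*, with some of the strongest H3K9ac, had H3K4me3 at 8.69 and 3.48 in WT and at 5.03 in KO replicate 2 and none in KO replicate 1.

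Between genotypes, 0 members had H3K4me3 in both WT lists and neither KO list (0.346% of all genes) and 2 had it in both KO lists and neither WT list (0.228% of all genes). These 2 were the head-to-head pair *Hist1h2ag* and *Hist1h2bj*, which shared 1 peak per list, at 3.60 and 3.57. Those peaks were 487 and 299 bp wide and weak, with a −log10 q of 2.32 and 2.41, and their summits lay 579 and 632 bp downstream of the *Hist1h2ag* start. The pair's H3K9ac values stood at 5.64 and 5.21 in WT and at 6.14 and 6.99 in KO, both KO values lying above both WT values. In WT replicate 1 the strongest H3K9ac peak lay on the *Hist1h2bj* side of the pair and in the other lists on the *Hist1h2ag* side. Among the 20 members fitted with limma, the median KO minus WT difference was -0.08, against 0.00 for all 10247 genes, and limma called 0 members and 0 genes in all (0%) at an adjusted p under 0.05. At an unadjusted p under 0.05 it gave 1 member, *Hist1h4k*, and 535 genes in all. *Hist1h4k* was at 2.78 and 3.48 in WT and at 4.25 and 6.62 in KO, a log2 difference of 0.83 (SE 0.41, limma unadjusted p = 0.0477, adjusted p = 0.897), which was 0.36 without WT replicate 1. After centring, both KO values lay below both WT values at 3 of the 20 (15%, against 17.6% of all genes fitted) and above them at 1 (5.00%, against 17.1%).

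H3K27ac and H3K4me1, made from 500000 cells per condition against 5000000 for the other marks, could be read from replicate 2 alone. In replicate 1, H3K27ac was listed at 6 members (8.96%) in WT and 0 in KO, against 12.7% and 0.465% of all genes. H3K4me1 in replicate 1 was listed at 1 member (1.49%) in WT and 0 in KO, against 1.85% and 3.29%. Those lists were short or made of narrow peaks. In replicate 2, H3K27ac was listed at 33 members (49.3%) in WT and 51 (76.1%) in KO, against 44.3% and 49.8% of all genes. In KO only it was listed at 18 members (26.9%), against 5.85% of all genes, and in WT only at 0, against 0.433%. The bases of these shares are unlike, since H3K9ac was in all 4 lists at 80.6% of members and 49.4% of all genes. Of the 18, 8 lay in the proximal and 10 in the distal *Hist1* stretch and none in *Hist2*, and 7 were H2A, 5 H2B, 4 H4, 1 H3 and 1 H1 genes. *Hist1h2ag* and *Hist1h2bj*, at 7.24, were the highest of them and *Hist1h2ad*, at 3.06, the lowest. The KO list was also longer, with 46047 peaks against 29757. With both lists held to their 29757 strongest peaks by p-value, 13 members (19.4%) were listed in KO only, against 3.85% of all genes. At the 33 members with a peak in both lists the KO value was higher in 28 (84.8%), as it was in 82.1% of all genes so listed. There was 1 list per genotype, so no test was possible, and genotype and list cannot be told apart.

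Members with H3K9ac in both replicates and no H3K27ac in replicate 2 numbered 22 of 55 (40.0%) in WT and 4 of 55 (7.27%) in KO, against 15.2% and 4.87% of all genes with H3K9ac in both replicates. With lists of equal length the counts were 21 and 9. H3K4me3 and H3K9ac together in both replicates were found at 26 members (38.8%) in WT and 30 (44.8%) in KO, against 46.8% and 47.4% of all genes. Of the members with H3K9ac in both replicates these were 47.3% and 54.5%, against 90.6% and 94.5% of all such genes. H3K4me1 in replicate 2 was listed at 3 members (4.48%) in WT and 31 (46.3%) in KO, against 18.4% and 37.2% of all genes. In KO only it was listed at 29 (43.3%), against 22.8% of all genes, and in WT only at 1, *Hist1h3g*, against 4.00%. With 45770 peaks in each list the KO-only count was 18 (26.9%), against 14.8%. The H3K4me1 summits in KO lay at a median of -714 bp from the histone starts, negative being upstream, against -268 bp for all genes with a peak.

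The summits of H3K9ac lay away from the starts of histone genes. In the 4 H3K9ac lists the strongest peak had its summit within 200 bp of the nearest start at 2, 5, 8 and 3 of the 55, 56, 55 and 56 members with a peak (WT replicates 1 and 2, KO replicates 1 and 2). These are 3.64% to 14.5%, against 50.9% to 55.2% of all genes with a peak. Farther upstream lay 43.6% to 47.3% of the members' summits and farther downstream 38.2% to 52.7%, and 12 to 14 lay past the 3′ end of the gene. For H3K4me3 the share within 200 bp was 14.6% to 22.2%, against 48.7% to 51.6%. The part of peaks shared between neighbours in this pattern was not tested. H3K9ac covered a median of 855 to 1260 bp of the 1500-bp window where it was present, against 841 to 937 bp for all genes, and 13 to 19 members lay wholly inside 1 peak.

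**Figure D4:**
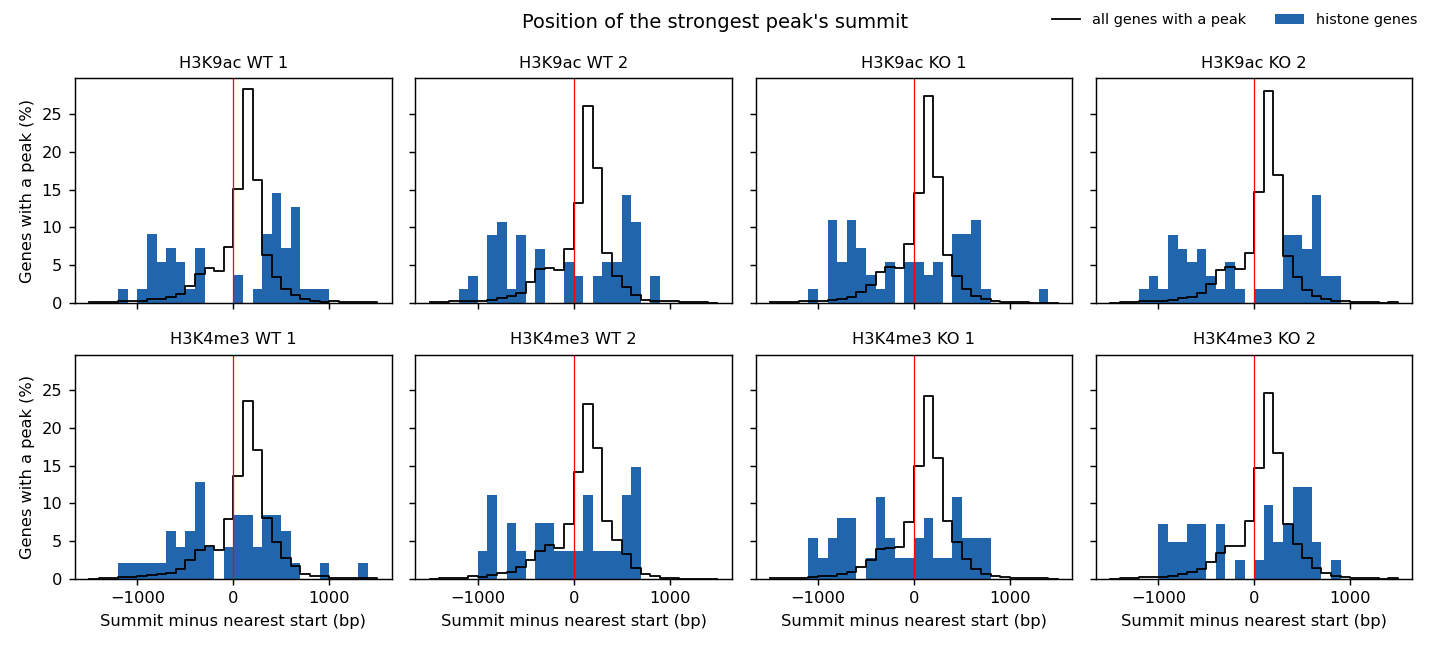
Position of the strongest peak's summit relative to the nearest annotated start (x axis, bp, positive downstream) in the 4 H3K9ac lists (top) and the 4 H3K4me3 lists (bottom). Bars give the percent of histone genes with a peak and the black line the percent of all genes with a peak per 100-bp bin; the black line peaks just after the start, where the H3K9ac bars are low, with 3.64% to 14.5% of summits within 200 bp.

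The 11 members without H3K9ac in any list fell into separate kinds. *Hist1h1t*, *Hist1h2ba* and *Hist1h2aa*, which encode testis histones, and *Hist3h2ba*, an H2B gene, had no peak of any mark in any of the 16 lists. Their promoter windows held at most 9.51% of 50-base words found more than once in the genome. *Hist1h1d*, a linker histone gene, also had none, but its GENCODE start lies 1770 bp upstream of its RefSeq start. In a window around the RefSeq start, H3K9ac was listed at 5.43 and 11.4 in WT and at 3.75 and 8.0 in KO, and H3K4me3 at 7.69 and 5.68 in WT and at 4.06 and 6.34 in KO, so at that start both marks were in every list.

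The other 6 were *Hist1h2bq*, *Hist1h2ao*, *Hist1h4m*, *Hist1h4n*, *Hist1h2ap* and *Hist1h2br*, neighbours in the proximal stretch (chr13:21806612-21837530). They are an H2B, an H2A and an H4 gene followed by the same classes in reverse order, and the RefSeq promoters of *Hist1h2bq*, printed above, and *Hist1h2br* were 100% identical over 300 bases. Between 96.3% and 100% of the 50-base words in their windows occurred more than once in GRCm38, against a median of 23% for the 67 members and 0.830% for all genes. No list held a peak of any mark at these 6. Reads from such sequence cannot be placed at 1 copy, and how the authors treated them is not given in the sources used here. The near-identical *Hist2h3c1* and *Hist2h3c2* had 93.2% and 92.9% repeated words and did have H3K9ac peaks, and no H3K4me3 or H3K27ac peak. Of the 59 members with under 50% repeated words, 5 had no H3K9ac in any list. What part the repeated sequence has in the missing peaks was not tested.

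**Figure D5:**
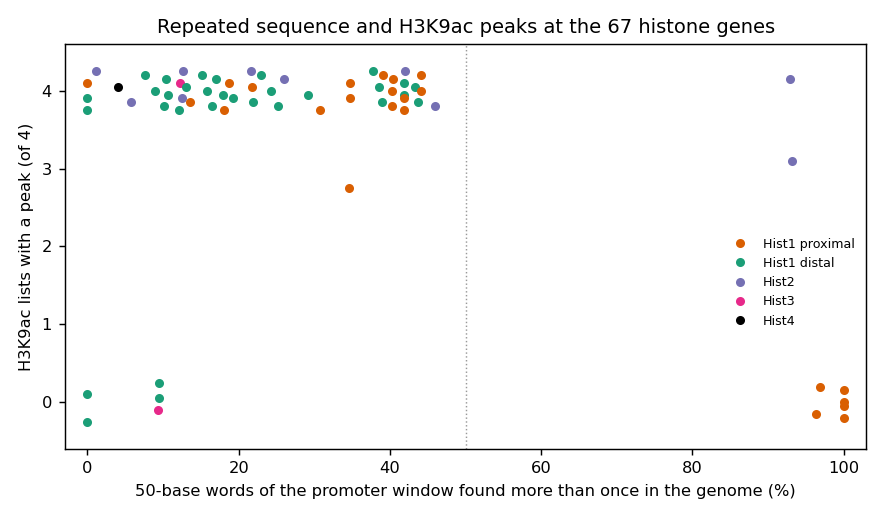
Percent of the 50-base words of each histone gene's promoter window that occur more than once in GRCm38 (x axis) against the number of H3K9ac lists with a peak (y axis, of 4, with points spread vertically so that they do not overlap). The 6 proximal *Hist1* genes with no peak sit at 96.3% to 100%, *Hist2h3c1* and *Hist2h3c2* near 93% have peaks in 3 and 4 lists, and the other 5 genes without a peak sit at 9.51% or less.

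The genes that serve histone production were marked throughout. All 13 histone gene regulators and processing factors found, among them *Npat*, *Slbp*, which binds the stem-loop, and *Hinfp*, and all 11 histone chaperones had H3K9ac and H3K4me3 in all 4 lists. Of 11 replication-independent histone variants, 10 had H3K9ac and 11 H3K4me3 in all 4 lists. Among all protein-coding genes 49.4% had H3K9ac and 46.7% H3K4me3 in all 4 lists. As a check of the cells, 7 of 8 myeloid and leukemia markers had H3K9ac in all 4 lists, and 0 of 4 B cell, 0 of 4 T cell and 0 of 5 markers outside blood had it in any, while 3 of 4 erythroid markers had it in at least 1. H3K4me3 was in all 4 lists at 6 of the 8 myeloid and leukemia markers. It was in no list at 2 B cell, 4 T cell, 2 erythroid and 5 outside markers. The B cell genes *Pax5* (3.81 in WT replicate 1) and *Ebf1* (3.16 in WT replicate 2) had it in 1 list each. The promoter of *Kat2a*, which lies outside the excised part of the gene and so does not check the deletion, had H3K9ac at 8.0 and 4.58 in WT and at 7.48 and 11.8 in KO.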

How the data were processed

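The 16 ChIP libraries were analysed from their deposited peak lists, and the 16 input libraries were not analysed here. Per the labels and the study's methods, the authors used BWA for alignment (mm10) and MACS2 for peaks, library by library. Each deposited list gives a fold enrichment (a linear ratio), −log10 p and −log10 q values and an integer score that follows the −log10 p. The lists kept peaks down to a −log10 p of 2.00, which is looser than the q-value named in the methods. No list holds read counts, so depth is unknown and no counting interval could be given.

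A promoter peak overlapped −1000 to +500 bp of any annotated start of a gene by at least 1 bp, and the strongest by fold was used. Positions are 1-based. The log2 fold of genes with a peak in all 4 lists of H3K9ac or H3K4me3 was centred on each library's median and fitted with limma (version 3.58.1, R 4.3.3) with genotype as the only term, and p-values were adjusted over all genes fitted. The fit was tested on simulated data with known changes and the same spread for every gene. For H3K27ac and H3K4me1 only replicate 2 was read. The study dropped 1 replicate of either mark without naming it. Leaving out replicate 1 in both genotypes was a choice made here, with results known, because its lists were short or narrow. Repeated sequence was measured as 50-base words occurring more than once on either strand of GRCm38.

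Genes were named by rule: members with one-way peaks or no H3K9ac, the extremes of H3K9ac rank in each class and cluster, testis histones, and members of *Hist2*, *Hist3* and *Hist4*. Others named, such as *Hist1h1e* and *Hist1h2bm*, were chosen after their values were seen. The members, lists and motifs were chosen with earlier results of these data known. Alternatives covered thresholds, list length, overlap, start sites, shared windows, scaling, the replicate block and leaving out replicates.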

Additional observations from a re-analysis of the deposited data

How the results depend on the processing

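Limits first: the lists are thresholded, hold no depth, and come from 1 pool of animals per genotype, and shared peaks make neighbouring members depend on each other. H3K9ac was in all 4 lists at 54 members at a q-value of at most 0.05, with equal list lengths and at the outermost starts, at 50 of 62 with RefSeq starts, at 42 at a −log10 q of at least 5 and at 38 with the summit in the window. limma called 0 histone genes under every alternative, the replicate block included (0 with the block, for both marks). The replicate numbers were not shown to pair the libraries: deviations of same-numbered libraries correlated at 0.13 for H3K9ac and 0.00 for H3K4me3. Of all genes, 0 were called with the block, 2 for H3K9ac without WT replicate 1, 2 for H3K9ac with summits in the window, and 2 for H3K4me3 without KO replicate 2. Without centring, the median of all genes was -0.08 for H3K9ac and -0.05 for H3K4me3, and the medians of the histone genes were -0.02 and -0.14.

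At a −log10 q of at least 5, H3K4me3 was in all 4 lists at 5 members and in none at 32. H3K4me3 with H3K9ac in both replicates was then 6 in WT and 8 in KO, H3K9ac without H3K27ac 10 in KO, H3K9ac in WT only 1, H3K4me3 in KO only 0, H3K4me1 in KO only 1 and in WT only 0 (also 0 at a q-value of 0.05). With equal list lengths, H3K9ac without H3K27ac was 9 in KO, H3K4me3 in KO only 4, H3K4me1 in KO only 18, and H3K4me3 in none 22. With the summit in the window, H3K4me3 with H3K9ac was 14 in WT, H3K9ac without H3K27ac 7 in KO, H3K9ac in KO only 3, H3K4me3 in WT only 2 and in KO only 1, and H3K27ac in WT only 3. One-way counts under these settings are given here without the share of all genes, and are not read as results about histone genes.

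Of the 39 merged windows, H3K9ac was in all 4 lists at 33 and in none at 5, H3K4me3 in all 4 at 13 and in none at 6, H3K4me3 with H3K9ac in WT at 16, H3K9ac without H3K27ac at 11 in WT and 1 in KO, H3K27ac in KO only at 9 and H3K4me3 in KO only at 0. Among the 59 members with under 50% repeated words, an alternative chosen after seeing the data like that of RefSeq starts, H3K9ac was in none at 5, H3K4me3 in none at 6, and H3K9ac without H3K27ac at 2 in KO. With H3K27ac required in both replicates, H3K9ac without it was 50 in WT and 55 in KO. The KO value was fixed beforehand, as replicate 1 listed H3K27ac at 0 members in KO and at 6 in WT, so this alternative compares nothing.

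Leaving out replicates, H3K4me3 with H3K9ac ranged from 27 to 47 in WT, H3K9ac in WT only from 0 to 1 and in KO only from 0 to 1, H3K4me3 in WT only from 0 to 14 and in KO only from 4 to 14. Shares of all genes were not computed for merged windows or with replicates left out. Those one-way counts are therefore not read as results about histone genes. In 102 of 124 recomputed counts per library the value stayed within 1.5 times of the first.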
